A study of Homo sapiens with 30 samples.

Results

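The genes described here, 34 in number, carry carbon from acetyl-CoA to cholesterol and to long-chain fatty acids, or control that flow. They were chosen by symbol for their place in lipid synthesis under the SREBP transcription factors or in sterol export under the liver X receptor (LXR). Each of the 34 matched 1 of the 57373 genes in the count table, and all 34 passed the filter on low counts, which 18485 genes of the whole table passed. By role, 7 belong to the arm that makes isoprenoid units, 11 lead through squalene to cholesterol, and 1 moves sterol within the cell. A further 5 are the SREBP factors and their controllers, 3 are LXR-controlled genes of sterol export and uptake, and 7 make or modify fatty acids.

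Animal cells make cholesterol in the endoplasmic reticulum and adjust the rate to the sterol already there. The SREBP proteins, encoded by SREBF1 and SREBF2, are held in that membrane by SCAP and the INSIG proteins when sterol is plentiful, and are carried to the Golgi and cut to an active form when it is scarce. LXR works the other way: oxysterols activate it, and it switches on sterol exporters, a ligase that removes lipoprotein receptors, and SREBF1.

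The cells were U2OS, an osteosarcoma line of human origin, and RNA was sequenced in 6 groups of 5 samples that the labels call biological replicates. The groups were dhelix FOXP2 with CHIR, WT FOXP2 with CHIR, dhelix FOXP2, WT FOXP2, CHIR alone, and mock-transfected cells. FOXP2 is a forkhead transcription factor; WT is its wild-type form, dhelix lacks residues 264 to 272, and each was overexpressed from 500 ng of transfected plasmid for 48 hours. CHIR (CHIR99021) inhibits glycogen synthase kinase 3 and so activates Wnt signalling through β-catenin; it was added at 5 µM 72 hours before transfection, and the title of the series concerns control of FOXP2 by β-catenin. All groups share 1 cell line, and the labels do not say whether mock or CHIR cells received an empty plasmid, so that effects of plasmid DNA and of FOXP2 cannot be told apart.

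FOXP2 checked the labels: it averaged 13481 ± 917 CPM (counts scaled by library size) with dhelix FOXP2 and CHIR, 15299 ± 983 with WT FOXP2 and CHIR, 5319 ± 640 with dhelix FOXP2, 7076 ± 779 with WT FOXP2, 0.504 ± 0.462 with CHIR and 0.898 ± 0.284 in mock (SD, n = 5 each). The constructs therefore differed in mean transcript level as well as in sequence, though their ranges overlapped at each CHIR state. With CHIR, FOXP2 ran from 11903 to 14236 CPM for dhelix FOXP2 and from 14041 to 16321 CPM for WT FOXP2. Without CHIR the ranges were 4655 to 6359 CPM and 5906 to 7806 CPM. AXIN2, a standard Wnt target, averaged 62.4, 49.2, 9.99, 8.11, 145 and 21.0 CPM in the same 6 groups. Libraries held 15755842 to 29466652 counts. Of 8 mesenchymal markers, 7 averaged at least 1 CPM in every group, and their summed level was 2526 to 3921 CPM in the 3 groups with CHIR and 4141 to 5771 CPM in the 3 without it. The 4 epithelial markers summed to 543 to 688 CPM with either construct and 331 to 410 CPM without one, and the 5 adipocyte markers to at most 1.53 CPM. The 4 hepatocyte markers summed to 2.38 to 5.80 CPM with CHIR alone and to at most 1.21 CPM in any other group. The 4 blood markers summed to 10.4 to 19.8 CPM with either construct, 2.26 to 2.98 CPM with CHIR alone and 0.294 to 0.715 CPM in mock. LEP was at 0 in 5 groups, TTR and HBB in all 6. The part of these differences in the results was not tested. In bulk RNA, fewer cells of a type and less RNA per cell cannot be told apart.

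CHIR replicate 1 stood apart from the other CHIR libraries. It lay outside their range for 29 of the 34 genes, above it for 13 and below it for 16, and the median coefficient of variation of the 34 genes was 13.6% in the CHIR group, against 3.14% to 5.39% in the others. Where leaving it out changes a call, the value without it stands beside the result. A gene is called higher or lower below where edgeR's quasi-likelihood test, fitted once to all 30 libraries, gave a Benjamini-Hochberg adjusted p under 0.05 over the 18485 genes tested. These p-values measure the spread between the labelled replicates. Fold changes are on the log2 scale with their standard errors, and levels are CPM, which depend on gene length and are compared only within a gene.

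Most of the 34 genes were lower with either construct, or with CHIR, than in mock cells, and mock was the highest of the 6 groups for 20 of them. How many of all genes had mock as the highest group was not counted. With WT FOXP2, 6 genes rose and 23 fell, while 39.9% of all genes tested were higher and 41.6% lower. With dhelix FOXP2, 7 rose and 19 fell, against 39.6% higher and 40.9% lower among all genes. With CHIR alone, 5 rose and 20 fell (7 and 23 without CHIR replicate 1), against 38.8% higher and 35.3% lower among all genes. The median log2 fold change of the 34 was -0.31, -0.19 and -0.27 in these 3 comparisons, and that of all genes was -0.02, -0.02 and 0.02. The 3 comparisons share the mock libraries, so their members in common carry no separate weight: 14 genes fell in all 3, against 24.1% of all genes, and 4 (HMGCS1, NSDHL, FASN and ACLY) rose in all 3, against 24.3% of all genes. Without CHIR replicate 1, 15 fell in all 3, FDPS being the addition.

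Few of these changes were large. With WT FOXP2, a called change of at least 2-fold was seen for HMGCS1 upward and for 7 genes downward (STARD4, SREBF1, SREBF2, ABCA1, ABCG1, FADS1 and FADS2), where 32.6% of all genes changed that much in either direction. With dhelix FOXP2 it was HMGCS1 and INSIG1 upward and 6 genes downward, STARD4 no longer among them, against 29.5% of all genes. With CHIR it was 0 upward and 6 downward, against 22.0% of all genes, and the 6 were SREBF1, ABCA1, ABCG1, MYLIP, FADS1 and FADS2.

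**Figure D1:**
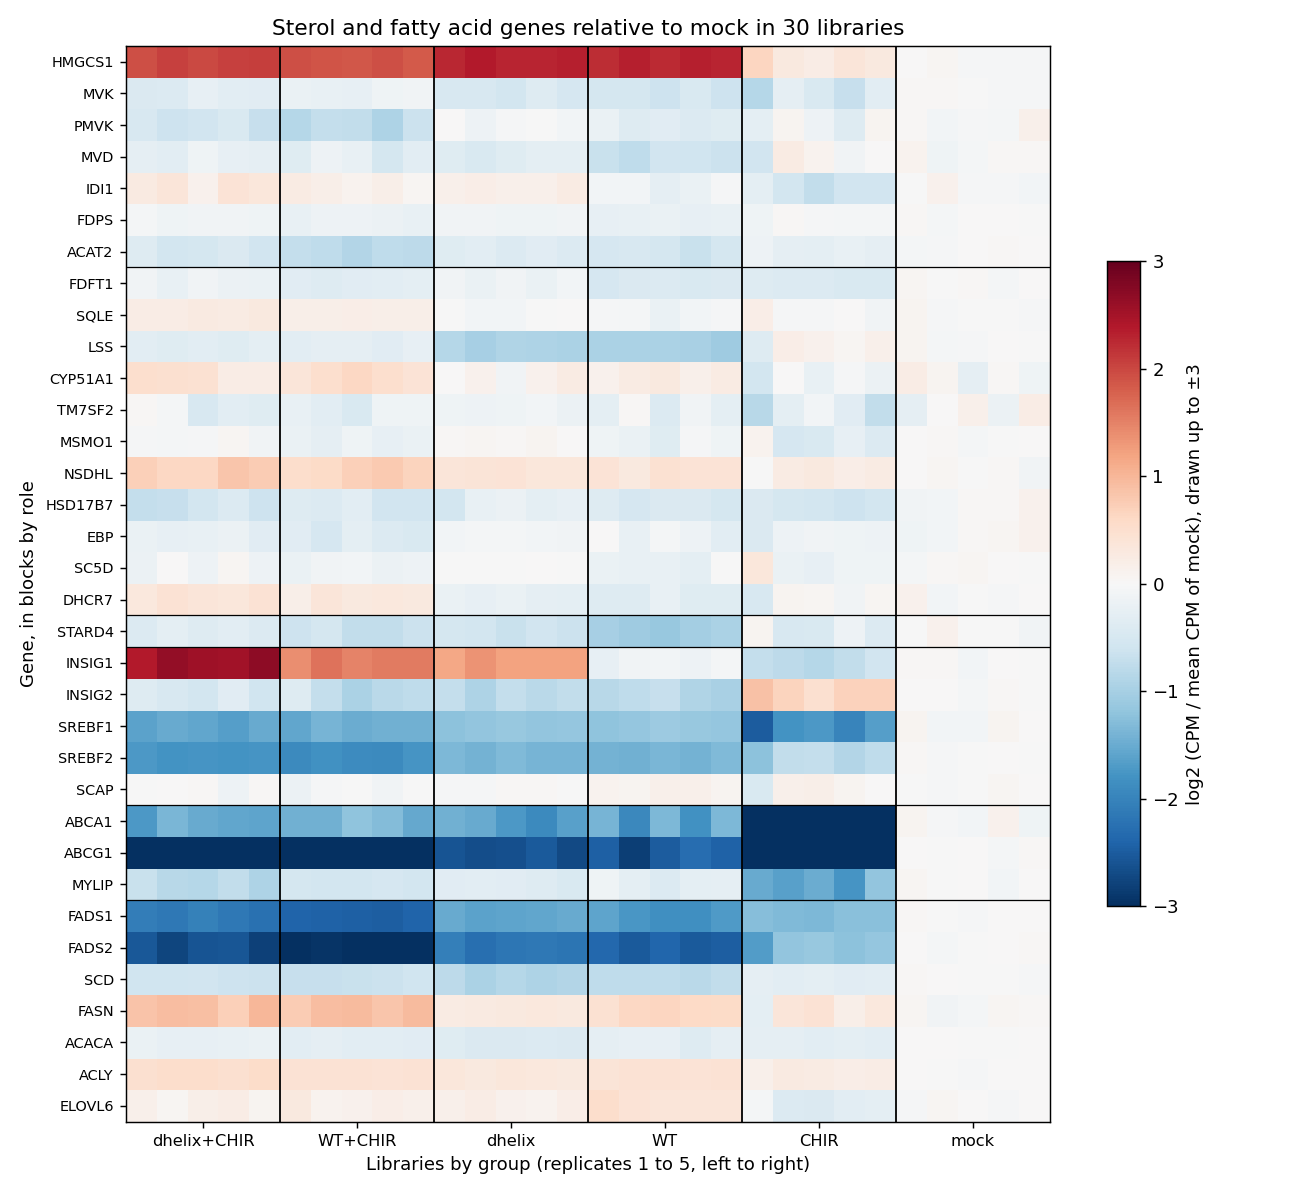
Level of each of the 34 genes in each of the 30 libraries, as log2 of its CPM over its mean in mock cells, with genes in rows grouped by role and libraries in columns grouped by treatment. Colour is drawn to a limit of 3 log2 units in either direction; HMGCS1 is high in all 4 groups with a construct, ABCA1 is lowest in the CHIR libraries and ABCG1 in all 3 groups with CHIR, and FADS1 and FADS2 are low everywhere outside mock.

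On a background of CHIR the constructs moved more genes up than down. WT FOXP2 with CHIR, set against CHIR alone, had 16 genes higher and 12 lower (16 and 13 without CHIR replicate 1), against 38.2% higher and 40.2% lower among all genes. Dhelix FOXP2 with CHIR had 18 higher and 9 lower (18 and 10 without that library), against 37.0% and 38.9%. At 2-fold or more these counts were 3 up and 3 down for WT FOXP2, against 25.8% of all genes, and 3 up and 2 down for dhelix FOXP2, against 22.0% of all genes; HMGCS1, INSIG1 and ABCA1 were the 3 that rose with both. These comparisons share the CHIR libraries. The median log2 fold change of the 34 was 0.09 with WT FOXP2 and 0.18 with dhelix FOXP2, and that of all genes was -0.03 in both.

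CHIR given to cells that carried a construct split the genes about evenly. In WT FOXP2 cells CHIR raised 13 and lowered 12, while 34.8% of all genes were higher and 30.2% lower. In dhelix FOXP2 cells it raised 12 and lowered 11, against 34.1% and 29.1%. At 2-fold or more only INSIG1 rose and only ABCG1 fell in each, where 13.1% of all genes changed that much in WT FOXP2 cells and 11.8% in dhelix FOXP2 cells.

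Of the isoprenoid arm, which builds activated 5-carbon units and joins them into farnesyl pyrophosphate, HMGCS1 alone moved by more than 2-fold. HMGCS1 (ENSG00000112972) encodes the synthase that condenses acetoacetyl-CoA with acetyl-CoA, the step before the pathway's rate-limiting reductase. Its promoter is shown because it is the synthesis enzyme with the strongest rise. The 250 bases before a RefSeq start are chr5:43313413-43313662 on the minus strand of GRCh38.p14. Capitals mark 2 CCAAT boxes, read as ATTGG, which bind the SREBP co-factor NF-Y. The window of another RefSeq start of HMGCS1, chr5:43313132-43313431, held no CCAAT box.
HMGCS1: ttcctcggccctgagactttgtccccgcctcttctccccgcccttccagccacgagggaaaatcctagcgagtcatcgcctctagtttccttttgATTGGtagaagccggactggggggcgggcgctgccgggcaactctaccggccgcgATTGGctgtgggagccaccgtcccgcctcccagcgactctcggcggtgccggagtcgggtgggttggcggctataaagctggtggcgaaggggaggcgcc
HMGCS1 stood at 492, 530, 507, 530 and 539 CPM with dhelix FOXP2 and CHIR and at 493, 474, 471, 494 and 462 CPM with WT FOXP2 and CHIR, against 202, 159, 151, 164 and 158 CPM with CHIR alone. Without CHIR, HMGCS1 stood at 615, 668, 628, 623 and 649 CPM with dhelix FOXP2 and at 592, 648, 603, 652 and 627 CPM with WT FOXP2, against 130, 134, 126, 126 and 126 CPM in mock. Every library with a construct lay above every library without one, the constructs overlapped each other at each CHIR state, and all CHIR libraries lay above all mock libraries. The log2 fold change was 2.31 ± 0.05 for dhelix FOXP2 against mock (adjusted p = 2.6e-31) and 2.28 ± 0.05 for WT FOXP2 against mock (adjusted p = 3.0e-31). In CHIR it was smaller, 1.64 ± 0.05 for dhelix FOXP2 and 1.52 ± 0.05 for WT FOXP2, and CHIR alone raised it by 0.38 ± 0.05 (adjusted p = 1.4e-08; 0.26 without CHIR replicate 1, the highest of its group). The antisense gene AC114947.2 overlaps 15.0% of its exon bases, and the strand setting of the counting is not given.

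The other 6 genes of that arm moved less, mostly downward. ACAT2, the cytosolic thiolase that makes acetoacetyl-CoA for HMGCS1, averaged 34.9 ± 1.87 CPM with dhelix FOXP2 and CHIR, 28.7 ± 1.16 with WT FOXP2 and CHIR, 38.1 ± 1.09 with dhelix FOXP2, 33.9 ± 1.65 with WT FOXP2, 41.8 ± 1.64 with CHIR and 49.2 ± 1.37 in mock, so that the step before HMGCS1 fell where HMGCS1 rose. Its log2 fold change against mock was -0.37 ± 0.04 with dhelix FOXP2, -0.54 ± 0.04 with WT FOXP2 and -0.24 ± 0.04 with CHIR. On the other strand SOD2-OT1 overlaps 33.9% of its exon bases, SOD2 26.5% and TCP1 9.23%. MVK, mevalonate kinase, fell by 0.48, 0.55 and 0.51 on the log2 scale in these comparisons, and its groups did not overlap mock in any of the 3. In CHIR, WT FOXP2 raised MVK by 0.33 ± 0.07 (adjusted p = 8.9e-05); the rise of 0.16 ± 0.07 with dhelix FOXP2 in CHIR (adjusted p = 0.048) was 0.10 without CHIR replicate 1 (adjusted p = 0.18), and also no longer passed without CHIR replicate 4 or without replicate 3 or 5 of dhelix FOXP2 with CHIR.

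PMVK and MVD encode the next enzymes, phosphomevalonate kinase and the decarboxylase that yields isopentenyl pyrophosphate. Both fell with WT FOXP2, by 0.34 and 0.65 on the log2 scale, and MVD also with dhelix FOXP2, by 0.35; neither passed the test with CHIR alone. PMVK was lowest where CHIR and a construct met, at 13.2 ± 0.903 CPM with dhelix FOXP2 and CHIR and 11.3 ± 0.892 with WT FOXP2 and CHIR, against 17.9 ± 2.56 with CHIR and 19.4 ± 1.31 in mock. MVD averaged 29.8 and 28.4 CPM in those groups with both, 27.7 with dhelix FOXP2 and 22.5 with WT FOXP2, against 34.5 with CHIR and 35.3 in mock.

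IDI1, the isomerase that makes dimethylallyl pyrophosphate, fell with CHIR alone (-0.54 ± 0.07, adjusted p = 2.9e-09) but rose with each construct in CHIR, by 0.85 ± 0.07 with dhelix FOXP2 and 0.69 ± 0.07 with WT FOXP2. It averaged 25.3 ± 1.78 CPM with dhelix FOXP2 and CHIR and 22.7 ± 1.22 with WT FOXP2 and CHIR, against 14.1 ± 1.55 with CHIR and 20.5 ± 1.21 in mock, and every CHIR library lay below every library of the other 5 groups. FDPS, farnesyl pyrophosphate synthase, varied least of the arm, its highest group mean being 1.17 times its lowest; it fell by 0.12 with dhelix FOXP2 and 0.23 with WT FOXP2. FDPS with CHIR against mock was at -0.05 with all libraries (adjusted p = 0.15) and at -0.065 without CHIR replicate 1 (adjusted p = 0.036). On the other strand IDI2-AS1 overlaps 14.8% of the exon bases of IDI1, and RUSC1-AS1 18.6% of those of FDPS.

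Of the 11 genes from squalene to cholesterol, 2 rose and 7 fell with WT FOXP2 against mock, where 39.9% of all genes were higher and 41.6% lower. With dhelix FOXP2 1 rose and 4 fell, against 39.6% and 40.9% of all genes. With CHIR 1 rose and 5 fell (2 and 7 without CHIR replicate 1), against 38.8% and 35.3% of all genes. In CHIR, dhelix FOXP2 raised 6 and lowered 1 (7 and 1 without that library), against 37.0% and 38.9% of all genes, and WT FOXP2 raised 5 and lowered 2 (6 and 2 without it), against 38.2% and 40.2%. FDFT1, squalene synthase, fell in all 3 comparisons with mock, by 0.14, 0.45 and 0.42 with dhelix FOXP2, WT FOXP2 and CHIR, and rose with the constructs in CHIR, by 0.27 ± 0.03 with dhelix FOXP2 and 0.08 ± 0.03 with WT FOXP2 (0.13 without replicate 2 of WT FOXP2 with CHIR). SQLE, the epoxidase that opens the sterol-specific steps, rose with each construct in CHIR (0.24 ± 0.04 with dhelix FOXP2 and 0.17 ± 0.04 with WT FOXP2) and passed no test against mock. SQLE with CHIR against mock was 0.02 ± 0.04 with all libraries and -0.073 without CHIR replicate 1 (adjusted p = 0.031).

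LSS, which folds squalene epoxide into lanosterol, showed the largest change of the 11. It stood at 111, 106, 110, 107 and 112 CPM with dhelix FOXP2 and CHIR and at 111, 115, 113, 108 and 116 CPM with WT FOXP2 and CHIR, against 104, 157, 150, 142 and 151 CPM with CHIR. Without CHIR, LSS stood at 75.9, 69.0, 72.9, 72.7 and 71.3 CPM with dhelix FOXP2 and at 70.6, 71.2, 71.1, 69.9 and 65.1 CPM with WT FOXP2, against 146, 133, 134, 137 and 136 CPM in mock. The construct groups without CHIR lay below all other groups, and the construct groups with CHIR lay between those and mock; CHIR replicate 1 was the lowest of its group. LSS fell by 0.92 ± 0.06 with dhelix FOXP2 and 0.98 ± 0.06 with WT FOXP2 (adjusted p = 2.4e-16 and 5.8e-17), and by 0.37 and 0.32 in CHIR. With CHIR against mock LSS was at 0.04 with all libraries (adjusted p = 0.58) and at 0.09 without CHIR replicate 1 (adjusted p = 0.0064).

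DHCR7, which completes cholesterol by reducing its precursor, fell with the constructs without CHIR, as LSS did, and rose with them in CHIR. It averaged 98.6 ± 3.92 CPM with dhelix FOXP2 and CHIR, 92.8 ± 4.48 with WT FOXP2 and CHIR, 64.3 ± 1.80 with dhelix FOXP2, 59.7 ± 2.99 with WT FOXP2, 72.5 ± 10.9 with CHIR and 75.9 ± 4.23 in mock. It thus fell by 0.24 ± 0.06 and 0.35 ± 0.06 with dhelix and WT FOXP2 against mock, and rose by 0.45 ± 0.06 and 0.36 ± 0.06 with them in CHIR. NSDHL, which removes the methyl groups at carbon 4 together with MSMO1 and HSD17B7, was the only gene of the 11 to rise in all 3 comparisons with mock and with both constructs in CHIR, by 0.20 to 0.51. HSD17B7 fell in all 3 comparisons with mock, by 0.29 to 0.53, and the transcribed copy HSD17B7P2 had counts equal to 58.9% of its own, so reads may have been split between them. MSMO1, the C-4 methyl oxidase, fell with CHIR (-0.28 ± 0.07) and WT FOXP2 (-0.16 ± 0.07); with dhelix FOXP2 in CHIR it rose by 0.25 ± 0.07. Without CHIR replicate 1 the value with CHIR was -0.44 and that with dhelix FOXP2 in CHIR 0.39. In CHIR with WT FOXP2, MSMO1 was at 0.08 with all libraries (adjusted p = 0.32) and at 0.23 without that library (adjusted p = 0.00012). The call with WT FOXP2 was lost when any of 9 libraries was left out (-0.16 to -0.10).

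The remaining 4 genes of this arm were CYP51A1, TM7SF2, EBP and SC5D. CYP51A1, the lanosterol demethylase, rose with WT FOXP2 (0.23 ± 0.10, adjusted p = 0.032) and with both constructs in CHIR (0.58 and 0.67 for dhelix and WT FOXP2), but AC000120.2 on the same strand overlaps 79.4% of its exon bases. TM7SF2, a sterol C-14 reductase, fell with CHIR by 0.43 ± 0.12 and passed no other test of 1 group against another. EBP, the sterol isomerase, fell against mock with WT FOXP2 and with CHIR, by 0.15 and 0.19. SC5D, the C-5 desaturase, fell with WT FOXP2 by 0.18 ± 0.07. These calls with WT FOXP2 were weak: that of CYP51A1 was lost without mock replicate 3 or 5 (0.17 to 0.20), that of EBP without mock replicate 3 or 5 or WT FOXP2 replicate 2 or 5 (-0.12 to -0.10), and that of SC5D without mock replicate 3 or WT FOXP2 replicate 2, 3 or 4 (-0.17 to -0.15). With dhelix FOXP2 in CHIR, SC5D was at -0.02 ± 0.07 with all libraries and 0.12 without CHIR replicate 1 (adjusted p = 0.039), whose level of 37.2 CPM lay above the 24.8 to 26.9 CPM of the other CHIR libraries; without it SC5D also fell with CHIR, by 0.22.

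STARD4, which carries cholesterol between membranes, averaged 55.9 ± 2.42 CPM with dhelix FOXP2 and CHIR, 45.7 ± 2.86 with WT FOXP2 and CHIR, 47.8 ± 1.98 with dhelix FOXP2, 35.1 ± 1.70 with WT FOXP2, 59.8 ± 10.3 with CHIR and 71.9 ± 4.22 in mock. It fell by 1.03 ± 0.07 with WT FOXP2 and by 0.59 ± 0.07 with dhelix FOXP2 against mock (adjusted p = 7.4e-16 and 6.3e-10). CHIR alone lowered it by 0.27 ± 0.07 (-0.41 without CHIR replicate 1), and CHIR raised it in dhelix FOXP2 cells (0.23 ± 0.07) and in WT FOXP2 cells (0.38 ± 0.07). In dhelix FOXP2 cells that rise was 0.17 and lost its call without dhelix FOXP2 replicate 3 or without replicate 2 of dhelix FOXP2 with CHIR.

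Both SREBP genes fell in all 3 comparisons with mock. SREBF2 encodes the SREBP that favours cholesterol genes, and it activates its own promoter. Its 250 bases before the start are chr22:41832855-41833104 on the plus strand of GRCh38.p14. Capitals mark a sterol regulatory element (TCACCCCAC, first base at -133) and a CCAAT box (ATTGG, first base at -106). This promoter is shown as the only one, among the 29 genes with a RefSeq entry, with an exact match to TCACNCCAC. Variant forms of the element and sites farther from the start were not sought.
SREBF2: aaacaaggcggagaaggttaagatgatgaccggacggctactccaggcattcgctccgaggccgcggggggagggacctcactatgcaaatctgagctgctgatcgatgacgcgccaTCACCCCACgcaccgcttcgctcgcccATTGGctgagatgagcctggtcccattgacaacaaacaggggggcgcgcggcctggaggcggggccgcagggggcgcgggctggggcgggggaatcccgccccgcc
SREBF2 stood at 91.2, 88.0, 89.4, 87.6 and 89.0 CPM with dhelix FOXP2 and CHIR and at 80.1, 86.1, 81.9, 80.9 and 88.8 CPM with WT FOXP2 and CHIR, against 129, 180, 183, 165 and 177 CPM with CHIR. Without CHIR, SREBF2 stood at 118, 112, 122, 116 and 115 CPM with dhelix FOXP2 and at 113, 112, 116, 114 and 120 CPM with WT FOXP2, against 310, 296, 299, 306 and 301 CPM in mock. Mock lay above all other libraries, CHIR came next, and the constructs overlapped each other at each CHIR state. The log2 fold change against mock was -1.37 ± 0.05 with dhelix FOXP2, -1.39 ± 0.05 with WT FOXP2 and -0.86 ± 0.05 with CHIR (adjusted p = 1.0e-23, 7.5e-24 and 2.5e-17).

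SREBF1 encodes the SREBP that favours fatty acid genes. It stood at 58.4, 62.0, 60.3, 56.4 and 62.3 CPM with dhelix FOXP2 and CHIR and at 59.9, 67.7, 63.0, 65.0 and 64.6 CPM with WT FOXP2 and CHIR, against 31.5, 51.3, 53.7, 44.5 and 56.2 CPM with CHIR. Without CHIR, SREBF1 stood at 74.8, 77.4, 80.1, 77.6 and 79.2 CPM with dhelix FOXP2 and at 76.5, 78.5, 82.7, 80.8 and 79.3 CPM with WT FOXP2, against 186, 166, 168, 186 and 177 CPM in mock. Unlike SREBF2, it was lowest with CHIR alone (-1.90 ± 0.08 against mock, adjusted p = 8.4e-21), and the constructs in CHIR stood above CHIR alone, by 0.34 ± 0.08 for dhelix FOXP2 and 0.43 ± 0.08 for WT FOXP2. Without CHIR replicate 1, the lowest SREBF1 library, these were 0.23 and 0.34. RAI1 on the other strand overlaps 6.92% of its exon bases.

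INSIG1 and INSIG2, the sterol-sensing anchors that hold SCAP in the endoplasmic reticulum, moved in opposite directions with CHIR, with dhelix FOXP2 and with either construct in CHIR. INSIG1 is itself a strong SREBP target. Its promoter is shown because INSIG1 is the member that differed most between the constructs; the 250 bases before the start are chr7:155297628-155297877 on the plus strand of GRCh38.p14, capitals mark 1 CCAAT box (ATTGG, first base at -170), and 78.4% of the bases are G or C.
INSIG1: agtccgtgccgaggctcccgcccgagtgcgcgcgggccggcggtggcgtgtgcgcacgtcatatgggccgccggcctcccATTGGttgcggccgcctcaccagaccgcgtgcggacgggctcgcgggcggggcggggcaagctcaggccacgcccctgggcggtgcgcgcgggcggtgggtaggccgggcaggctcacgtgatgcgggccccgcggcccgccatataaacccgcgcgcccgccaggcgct
INSIG1 stood at 113, 135, 126, 123 and 139 CPM with dhelix FOXP2 and CHIR and at 56.6, 66.6, 60.2, 63.6 and 63.9 CPM with WT FOXP2 and CHIR, against 13.0, 12.5, 11.9, 12.8 and 14.5 CPM with CHIR. Without CHIR, INSIG1 stood at 48.2, 55.1, 49.97, 49.4 and 49.4 CPM with dhelix FOXP2 and at 18.1, 19.95, 20.3, 19.4 and 20.5 CPM with WT FOXP2, against 21.9, 22.1, 20.4, 21.8 and 21.4 CPM in mock. The groups did not overlap except WT FOXP2 and mock, and the highest mean was 9.78 times the lowest. Dhelix FOXP2 raised INSIG1 by 1.23 ± 0.06 against mock (adjusted p = 2.1e-21), WT FOXP2 gave -0.13 ± 0.06 (adjusted p = 0.056), and CHIR alone lowered it by 0.73 ± 0.07 (adjusted p = 1.5e-12). In CHIR, dhelix FOXP2 raised it by 3.29 ± 0.06 and WT FOXP2 by 2.26 ± 0.06 (adjusted p = 5.5e-33 and 5.0e-28).

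INSIG2 stood at 17.1, 16.1, 15.3, 17.8 and 15.0 CPM with dhelix FOXP2 and CHIR and at 17.3, 13.7, 11.7, 12.9 and 13.2 CPM with WT FOXP2 and CHIR, against 41.1, 35.8, 31.4, 36.2 and 36.5 CPM with CHIR. Without CHIR, INSIG2 stood at 13.7, 11.9, 13.7, 12.7 and 13.6 CPM with dhelix FOXP2 and at 12.6, 13.3, 14.01, 12.1 and 11.5 CPM with WT FOXP2, against 22.6, 22.5, 21.7, 23.2 and 22.5 CPM in mock. All CHIR libraries were above, and all libraries with a construct below, those of mock. CHIR raised INSIG2 by 0.69 ± 0.07 against mock (adjusted p = 5.4e-11), dhelix FOXP2 lowered it by 0.78 ± 0.07 and WT FOXP2 by 0.83 ± 0.08. SCAP, the escort that the INSIG proteins retain, averaged 125 to 143 CPM in the 6 groups; its 1 call between 2 groups was a difference of -0.19 ± 0.07 with CHIR in WT FOXP2 cells, which was -0.15 and no longer passed without replicate 1 of WT FOXP2 with CHIR. Without CHIR replicate 1, at 95.6 CPM against 133 to 148 CPM in the other CHIR libraries, SCAP was also called higher with CHIR against mock (0.08), and lower in CHIR with dhelix FOXP2 (-0.11) and with WT FOXP2 (-0.15).

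**Figure D2:**
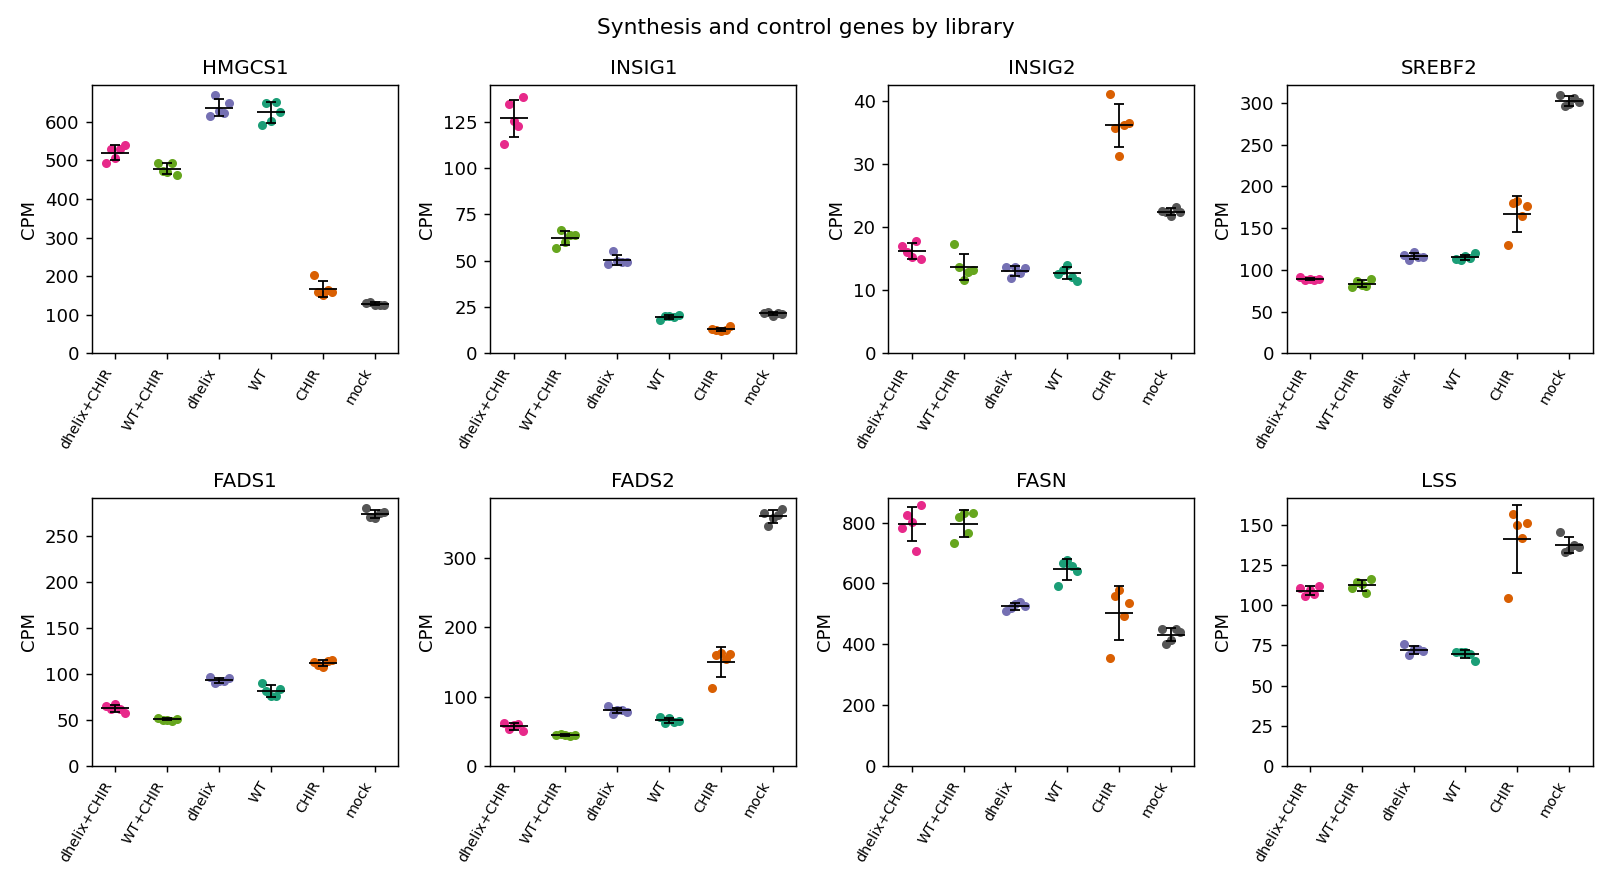
CPM of 8 genes of synthesis and its control (linear axes from 0) in the 6 groups, with a point for each library and the mean ± SD over 5 libraries as a line with whiskers. HMGCS1 is at 462 CPM or more in every library with a construct and at most 202 CPM in every other; INSIG1 separates dhelix from WT FOXP2 with and without CHIR; SREBF2, FADS1 and FADS2 are highest in mock.

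The 3 LXR-controlled genes of export and uptake fell in all 3 comparisons with mock, and with CHIR against mock ABCG1 and ABCA1 showed the largest falls of the 34. ABCA1 loads cholesterol onto lipid-poor apolipoprotein A-I. It stood at 2.37, 2.99, 2.73, 2.65 and 2.59 CPM with dhelix FOXP2 and CHIR and at 2.84, 2.84, 3.37, 3.18 and 2.68 CPM with WT FOXP2 and CHIR, against 0.411, 0.373, 0.472, 0.569 and 0.655 CPM with CHIR. Without CHIR, ABCA1 stood at 2.87, 2.73, 2.36, 2.08 and 2.51 CPM with dhelix FOXP2 and at 2.95, 2.04, 3.06, 2.19 and 3.07 CPM with WT FOXP2, against 8.27, 7.54, 7.36, 8.52 and 7.15 CPM in mock. Mock lay above and CHIR below all other libraries, and the 4 construct groups overlapped each other. CHIR lowered ABCA1 by 3.96 ± 0.15 against mock (adjusted p = 7.3e-24), dhelix FOXP2 by 1.62 ± 0.10 and WT FOXP2 by 1.54 ± 0.10. In CHIR the constructs raised it, dhelix FOXP2 by 2.42 ± 0.18 and WT FOXP2 by 2.58 ± 0.17 (adjusted p = 1.3e-14 and 5.1e-16). Its lowest library held 6 counts, the smallest count of any of the 34 genes.

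ABCG1, which passes cholesterol to larger lipoproteins, had the widest span, its highest mean being 26.7 times its lowest. It stood at 2.37, 2.17, 1.99, 2.76 and 2.64 CPM with dhelix FOXP2 and CHIR and at 2.27, 2.70, 2.53, 2.01 and 1.54 CPM with WT FOXP2 and CHIR, against 1.13, 2.11, 1.51, 1.90 and 1.85 CPM with CHIR. Without CHIR, ABCG1 stood at 7.58, 7.22, 7.36, 7.87 and 6.92 CPM with dhelix FOXP2 and at 8.30, 6.38, 8.07, 9.38 and 8.47 CPM with WT FOXP2, against 46.0, 44.8, 45.9, 43.9 and 46.5 CPM in mock. Mock stood far above all others, the construct groups without CHIR came next, and the 3 groups with CHIR were lowest and overlapped. The log2 fold change against mock was -4.76 ± 0.10 with CHIR, -2.62 ± 0.08 with dhelix FOXP2 and -2.48 ± 0.08 with WT FOXP2 (adjusted p = 3.2e-31, 1.9e-27 and 1.9e-26). CHIR lowered it further in dhelix FOXP2 cells (-1.63 ± 0.11) and in WT FOXP2 cells (-1.87 ± 0.11). In CHIR it rose by 0.52 ± 0.16 with dhelix FOXP2 (adjusted p = 0.0036); the rise of 0.42 ± 0.16 with WT FOXP2 (adjusted p = 0.016) was 0.33 without CHIR replicate 1 and no longer passed (adjusted p = 0.055).

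MYLIP, the ubiquitin ligase that sends lipoprotein receptors to degradation, stood at 11.4, 10.03, 9.87, 10.9 and 9.51 CPM with dhelix FOXP2 and CHIR and at 12.5, 12.3, 12.2, 12.8 and 12.3 CPM with WT FOXP2 and CHIR, against 6.32, 5.85, 6.46, 5.31 and 7.86 CPM with CHIR. Without CHIR, MYLIP stood at 14.1, 14.5, 14.2, 13.8 and 13.0 CPM with dhelix FOXP2 and at 16.4, 14.7, 13.6, 14.7 and 14.9 CPM with WT FOXP2, against 18.7, 17.8, 18.2, 16.9 and 18.2 CPM in mock. All CHIR libraries lay below, and all mock libraries above, those with a construct. CHIR lowered MYLIP by 1.498 ± 0.07 against mock (adjusted p = 1.1e-20), dhelix FOXP2 by 0.37 ± 0.06 and WT FOXP2 by 0.28 ± 0.06, and the constructs raised it in CHIR by 0.70 ± 0.08 (dhelix) and 0.96 ± 0.07 (WT).

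**Figure D3:**
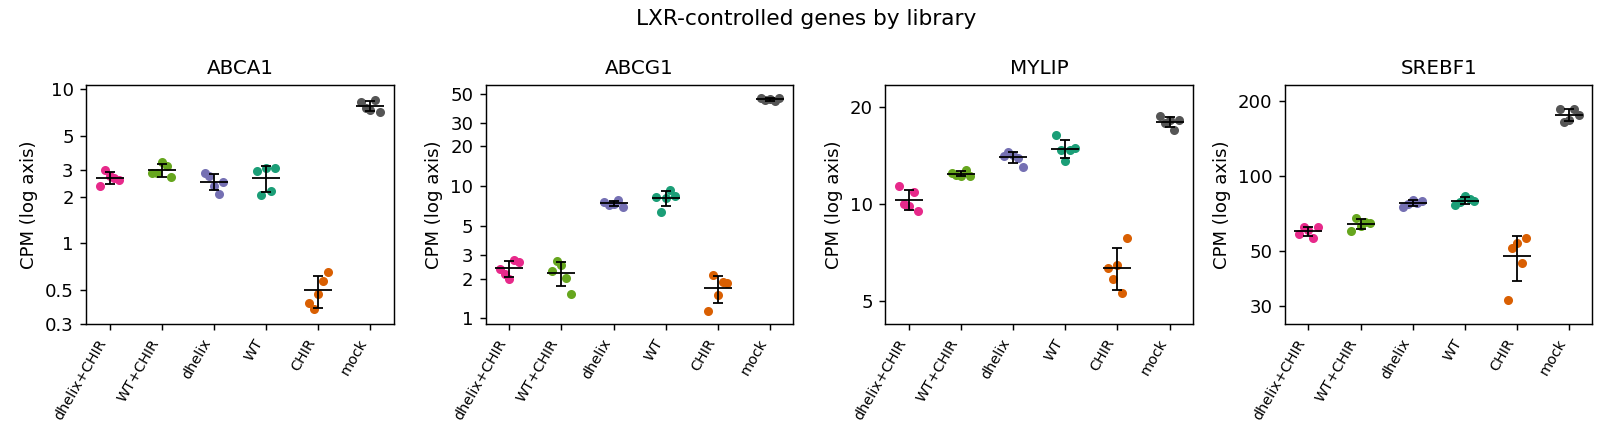
CPM of ABCA1, ABCG1, MYLIP and SREBF1 (log axes) in the 6 groups, with a point for each library and the mean ± SD over 5 libraries. Mock is highest and CHIR alone has the lowest mean for all 4; the groups with both CHIR and a construct lie above CHIR alone for ABCA1, MYLIP and SREBF1, and overlap it for ABCG1.

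Against mock, the 7 fatty acid genes divided: transcripts for the building of palmitate rose in part, and those of the desaturases fell. FADS1 and FADS2, the delta-5 and delta-6 desaturases of polyunsaturated fatty acids, are neighbours on chromosome 11: in the RefSeq table the FADS1 start lies 800 bases from a FADS2 start on the opposite strand, and the genes share 4.79% of FADS1's exon bases. FADS1 stood at 65.3, 61.7, 66.9, 61.7 and 57.8 CPM with dhelix FOXP2 and CHIR and at 52.0, 50.5, 50.4, 49.2 and 51.4 CPM with WT FOXP2 and CHIR, against 113, 110, 107, 114 and 115 CPM with CHIR. Without CHIR, FADS1 stood at 96.3, 90.0, 91.9, 92.4 and 95.4 CPM with dhelix FOXP2 and at 90.6, 81.0, 76.0, 76.0 and 83.7 CPM with WT FOXP2, against 280, 270, 269, 274 and 275 CPM in mock. Only the constructs without CHIR overlapped each other, and the order ran from mock through CHIR, dhelix FOXP2, WT FOXP2 and dhelix FOXP2 with CHIR to WT FOXP2 with CHIR. The log2 fold change against mock was -1.55 ± 0.04 with dhelix FOXP2, -1.75 ± 0.04 with WT FOXP2 and -1.29 ± 0.04 with CHIR (adjusted p = 2.6e-29, 1.0e-30 and 1.5e-26).

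FADS2 followed the same order of groups. It stood at 61.9, 53.7, 59.4, 60.5 and 51.4 CPM with dhelix FOXP2 and CHIR and at 44.7, 47.0, 44.9, 42.9 and 45.5 CPM with WT FOXP2 and CHIR, against 113, 160, 163, 154 and 162 CPM with CHIR. Without CHIR, FADS2 stood at 86.5, 75.7, 80.4, 80.9 and 78.5 CPM with dhelix FOXP2 and at 70.4, 62.5, 69.0, 63.0 and 65.4 CPM with WT FOXP2, against 365, 346, 357, 363 and 371 CPM in mock. No 2 neighbouring groups overlapped, and CHIR replicate 1 lay well below the other CHIR libraries. The log2 fold change against mock was -2.16 ± 0.06 with dhelix FOXP2, -2.45 ± 0.07 with WT FOXP2 and -1.26 ± 0.06 with CHIR, and CHIR lowered FADS2 further in dhelix FOXP2 cells (-0.49 ± 0.07) and WT FOXP2 cells (-0.55 ± 0.07).

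SCD, the delta-9 desaturase that makes oleate, fell by 0.87 ± 0.03 with dhelix FOXP2, 0.77 ± 0.03 with WT FOXP2 and 0.31 ± 0.03 with CHIR against mock. It averaged 151 CPM with dhelix FOXP2 and CHIR, 146 with WT FOXP2 and CHIR, 125 with dhelix FOXP2, 135 with WT FOXP2, 186 with CHIR and 230 in mock, and all mock libraries lay above all others. FASN, the synthase that builds palmitate, moved the other way. It stood at 781, 826, 803, 708 and 857 CPM with dhelix FOXP2 and CHIR and at 734, 818, 832, 765 and 832 CPM with WT FOXP2 and CHIR, against 355, 559, 579, 492 and 536 CPM with CHIR. Without CHIR, FASN stood at 509, 519, 531, 539 and 527 CPM with dhelix FOXP2 and at 592, 668, 678, 656 and 640 CPM with WT FOXP2, against 450, 401, 416, 450 and 442 CPM in mock. The groups with CHIR and a construct lay above all other libraries and overlapped each other. CHIR replicate 1, at 355 CPM, lay below every other CHIR library (492 to 579 CPM) and every mock library (401 to 450 CPM). It thus pulled down the CHIR mean used in the comparisons with CHIR below. FASN rose by 0.28 ± 0.08 with dhelix FOXP2 and 0.58 ± 0.08 with WT FOXP2 against mock, and by 0.66 ± 0.08 with each in CHIR. Its rise with CHIR alone, 0.22 ± 0.08 (adjusted p = 0.010), was 0.19 and no longer passed when only the CHIR and mock libraries were fitted (adjusted p = 0.10), and it was likewise lost without CHIR replicate 3 or 5 or mock replicate 2 (0.14 to 0.17).

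ACLY, which supplies cytosolic acetyl-CoA from citrate, averaged 486 ± 11.6 CPM with dhelix FOXP2 and CHIR, 457 ± 3.28 with WT FOXP2 and CHIR, 424 ± 7.32 with dhelix FOXP2, 456 ± 7.21 with WT FOXP2, 396 ± 13.6 with CHIR and 340 ± 3.79 in mock. It rose by 0.32 ± 0.03, 0.42 ± 0.03 and 0.22 ± 0.03 with dhelix FOXP2, WT FOXP2 and CHIR against mock, and no mock library reached any other. ACACA, which carboxylates that acetyl-CoA to malonyl-CoA, fell by 0.42, 0.29 and 0.30 in the same comparisons, so that the enzymes on either side of it rose while it fell. ELOVL6, which lengthens palmitate to stearate, rose with dhelix FOXP2 (0.16 ± 0.05) and WT FOXP2 (0.41 ± 0.05) and fell with CHIR (-0.30 ± 0.05).

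The constructs were next compared with each other, which asks what the deletion of residues 264 to 272 changes. Mean FOXP2 transcript was lower with dhelix than with WT FOXP2 at each CHIR state, and the part of that difference was not tested. Without CHIR, 12 of the 34 genes were higher and 5 lower with dhelix FOXP2 than with WT FOXP2, against 16.9% higher and 18.7% lower among all genes. With CHIR, 11 were higher and 1 lower, against 16.6% and 13.9%. The median log2 difference of the 34 was 0.06 and 0.08, and that of all genes 0.00 and 0.01. INSIG1 was the only member with a called difference of at least 2-fold, without CHIR (1.36 ± 0.06, adjusted p = 3.8e-20) and with CHIR (1.03 ± 0.05, adjusted p = 1.4e-17), where 2.56% and 2.16% of all genes changed that much. With CHIR the INSIG1 difference lies near that threshold.

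By role, the sterol genes that differed without CHIR were all higher with dhelix FOXP2. They were 5 of the isoprenoid arm (PMVK, MVD, IDI1, FDPS and ACAT2, by 0.11 to 0.31), 3 of the squalene to cholesterol arm (FDFT1 by 0.31, MSMO1 by 0.20 and SC5D by 0.18), STARD4 by 0.44 ± 0.07, and INSIG1. FADS1 and FADS2 were also higher, by 0.19 ± 0.04 and 0.29 ± 0.07, while the other 5 fatty acid genes were lower: FASN by -0.30, ELOVL6 by -0.25, ACACA by -0.13, ACLY by -0.11 and SCD by -0.10. SC5D lost its call without any of 6 libraries, SCD without WT FOXP2 replicate 5 or dhelix FOXP2 replicate 2 or 4, and MSMO1 without WT FOXP2 replicate 3. With CHIR, FADS1 (0.30 ± 0.04), FADS2 (0.35 ± 0.07), ACACA (0.09) and ACLY (0.09) were higher, so that ACACA and ACLY differed in opposite directions at the 2 CHIR states. STARD4 (0.29), ACAT2 (0.28), PMVK (0.22), FDFT1 (0.18), EBP (0.17) and INSIG2 (0.23) were higher with CHIR as well, and MYLIP (-0.26 ± 0.07, adjusted p = 0.0032) was the only gene lower. Of these, PMVK lost its call without any of 4 libraries (0.19 to 0.20), EBP without any of 7 (0.13 to 0.16) and INSIG2 without any of 7 (0.18 to 0.22). The difference of HMGCS1 was 0.03 without CHIR (95% interval -0.06 to 0.12) and 0.12 with CHIR (0.03 to 0.21, adjusted p = 0.052). For SREBF2 it was 0.02 without CHIR (-0.08 to 0.12), and for ABCA1 -0.08 (-0.31 to 0.15).

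**Figure D4:**
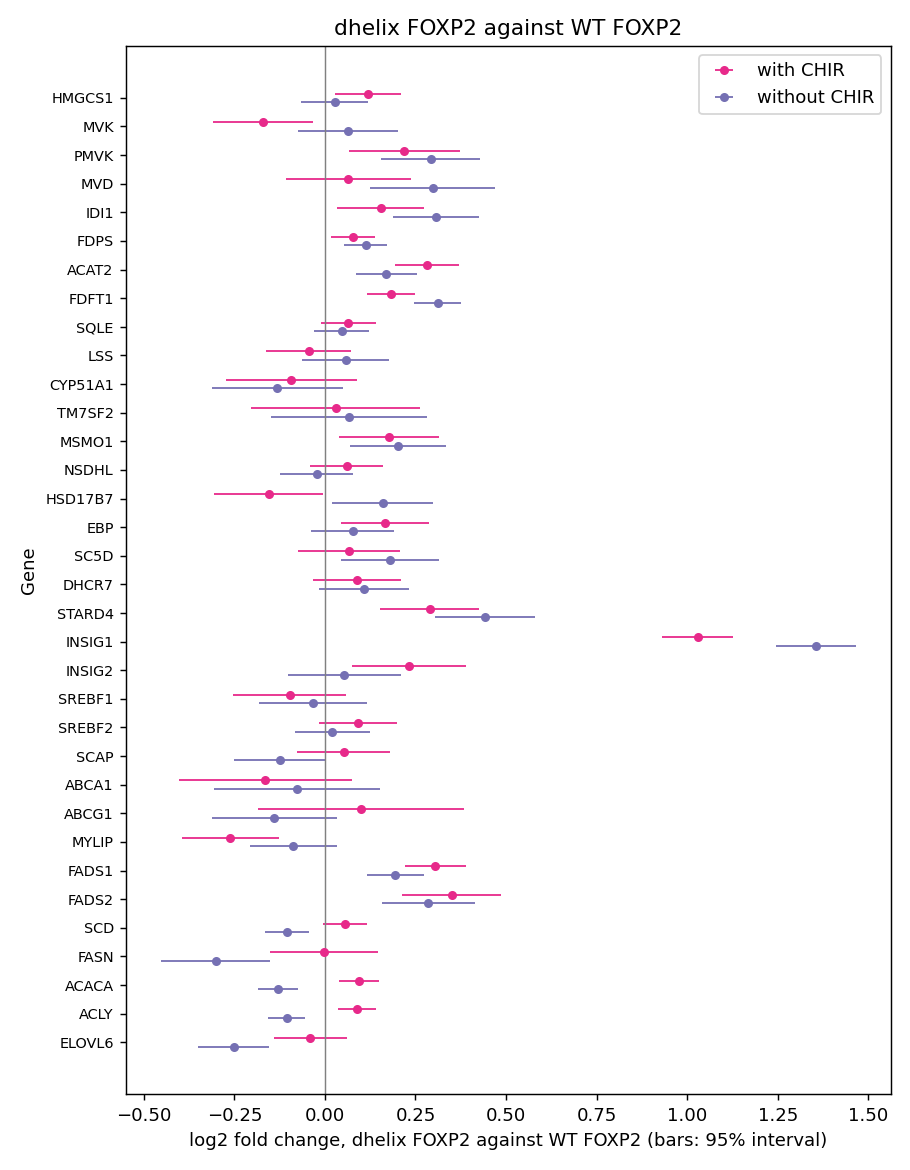
Log2 fold change of dhelix FOXP2 against WT FOXP2 for each of the 34 genes, with CHIR and without it; points are estimates and bars are 95% intervals. INSIG1 stands at 1.03 with CHIR and 1.36 without, and the next farthest from 0 is STARD4 without CHIR, at 0.44.

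Whether a construct acted differently in CHIR was tested as an interaction, the log2 effect of the construct in CHIR minus its log2 effect without CHIR. FOXP2 transcript was itself higher with CHIR than without it, at the levels given above (13481 against 5319 CPM for dhelix FOXP2 and 15299 against 7076 CPM for WT FOXP2), and the part of that difference in the interactions was not tested. For WT FOXP2 the interaction was above 0 for 22 genes and below 0 for 4 (24 and 5 without CHIR replicate 1), against 30.7% above and 34.9% below among all genes. For dhelix FOXP2 it was above 0 for 20 and below 0 for 3 (23 and 4 without that library), against 31.2% and 33.7%. Its median over the 34 was 0.39 for each construct, and over all genes -0.02 for WT FOXP2 and close to 0 for dhelix FOXP2. The 2 interactions share the mock and CHIR libraries, and with them CHIR replicate 1. Without that library the WT FOXP2 interaction also passed for FDPS (0.09), SC5D (0.24), ELOVL6 (0.16) and SCAP (-0.28), and that of dhelix FOXP2 for MSMO1 (0.33), HSD17B7 (0.25), ACAT2 (0.13) and SCAP (-0.13). The WT FOXP2 interaction of MSMO1 was 0.23 with all libraries and 0.37 without CHIR replicate 1, and lost its call without any of 5 other libraries (0.18 to 0.24).

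ABCA1 had the largest interaction, 4.04 ± 0.20 for dhelix FOXP2 and 4.13 ± 0.20 for WT FOXP2 (adjusted p = 3.4e-19 and 1.0e-19). ABCG1 followed with 3.13 ± 0.18 and 2.89 ± 0.18, INSIG1 with 2.06 ± 0.08 and 2.39 ± 0.09, SREBF1 with 1.52 ± 0.11 and 1.58 ± 0.11, and MYLIP with 1.06 ± 0.10 and 1.24 ± 0.10. A construct lowered the level against mock and raised it against CHIR for 7 genes with WT FOXP2 (ABCA1, ABCG1, MYLIP, SREBF1, MVK, FDFT1 and DHCR7), against 5.71% of all genes, and for 8 with dhelix FOXP2, ACACA being the addition, against 5.97% of all genes. Without CHIR replicate 1 there were 7 with each: ABCG1 left the WT FOXP2 genes and MSMO1 joined them, and MVK left the dhelix FOXP2 genes. Read the other way, CHIR lowered INSIG1, SCD and STARD4 in mock cells and raised them in cells with either construct, and without CHIR replicate 1 SQLE did so too. In all, 6 genes did so with WT FOXP2, against 7.58% of all genes, and 4 with dhelix FOXP2, against 7.32%.

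The interaction was below 0 for both constructs in 3 genes. HMGCS1 (-0.67 ± 0.07 for dhelix FOXP2 and -0.76 ± 0.07 for WT FOXP2) rose less in CHIR, and INSIG2 (-0.38 ± 0.11 and -0.56 ± 0.11) fell more. The third was PMVK (-0.39 ± 0.10 and -0.32 ± 0.10). With dhelix FOXP2 it was called lower only in CHIR, and with WT FOXP2 it fell at both CHIR states, more so in CHIR. ACLY was the fourth for WT FOXP2, at -0.21 ± 0.04. TM7SF2 passed for WT FOXP2 (0.38, adjusted p = 0.040) but stood at 0.31 without CHIR replicate 1 (adjusted p = 0.066), and lost its call without any of 9 libraries in all. The difference between the constructs' interactions passed the test for 6 genes, 4 above 0 and 2 below, against 8.93% and 5.29% of all genes. Those above 0 were all fatty acid genes: ACACA (0.22 ± 0.04, adjusted p = 0.00017), ACLY (0.19), ELOVL6 (0.21) and SCD (0.16). Those below 0 were INSIG1 (-0.33 ± 0.08, adjusted p = 0.0027) and HSD17B7 (-0.31 ± 0.10, adjusted p = 0.038). ELOVL6 lost its call without any of 17 libraries, SCD without any of 9 and HSD17B7 without any of 7. This count was 13 when the 3 libraries that stood most apart from their groups (CHIR replicate 1, dhelix FOXP2 replicate 5 and WT FOXP2 with CHIR replicate 4) were left out, and also when only the 4 groups concerned were fitted.

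**Figure D5:**
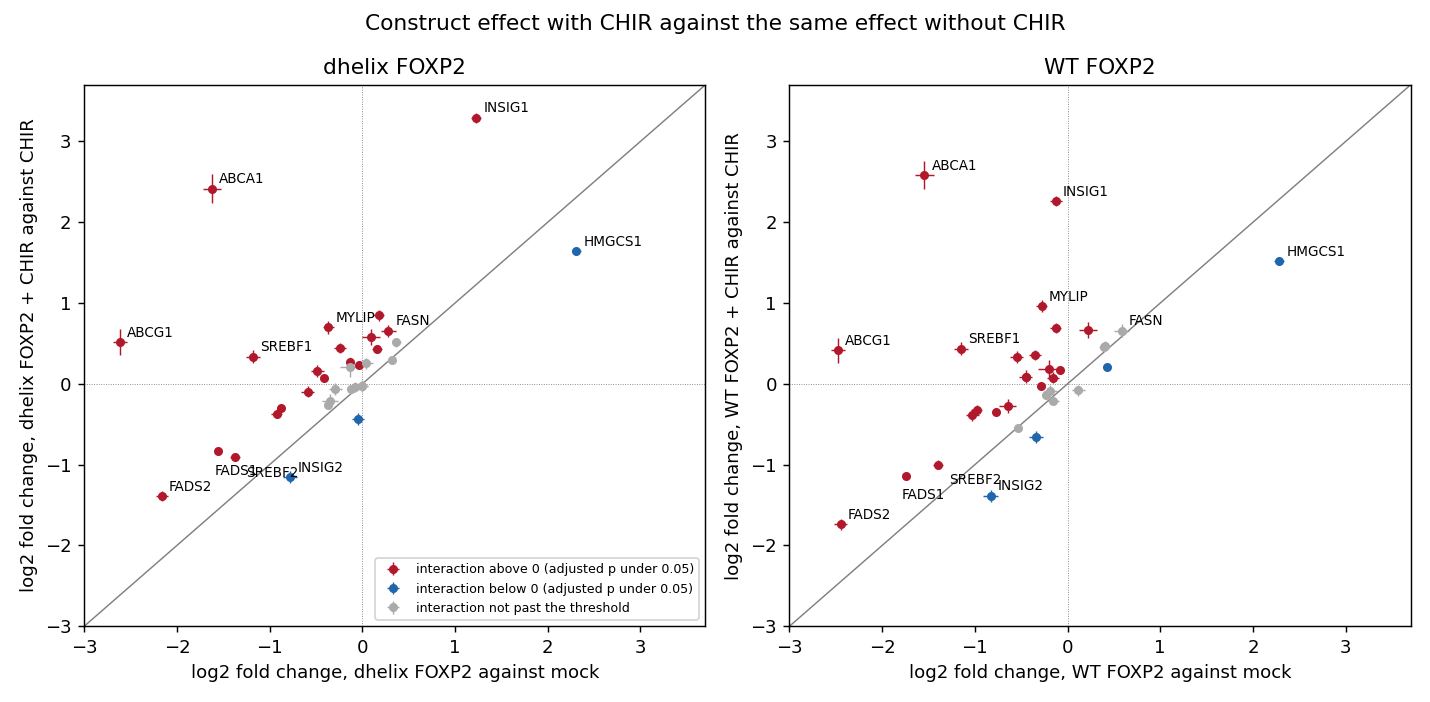
Effect of dhelix FOXP2 (left) and WT FOXP2 (right) on each of the 34 genes, as log2 fold change against mock (horizontal) and, in CHIR, against CHIR alone (vertical); bars are 1 standard error and points on the diagonal have equal effects. Red points have an interaction above 0 that passed the test, blue points below 0, and grey points did not pass; ABCA1, ABCG1 and INSIG1 lie farthest above the diagonal and HMGCS1 below it.

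The promoters gave a description of sequence only. Of the 34 genes, 29 matched the RefSeq table by symbol, with 39 windows of 250 bases before to 50 after a start, among 35116 windows in all. On both strands, with overlapping matches allowed, CCAAT was found in 25 of the 39 windows (64.1%) and in 34.6% of all windows, and GGGCGG, the GC box, in 35 (89.7%) and in 15786 of all windows. The sterol regulatory element TCACNCCAC was found in 1 window (2.56%), that of SREBF2 printed above, and in 1.13% of all. The TCF/LEF motif CTTTGNT was found in 2 windows (5.13%), of FADS2 and SC5D, and in 15.4% of all, and the forkhead motif TGTTTAC in 1 window (2.56%), of ELOVL6, and in 3.42% of all. The direct repeat with a spacer of 4 bases that LXR binds was found in 0 member windows and in 0.0199% of all. Every motif was sought as exact letters, so variant sites and sites outside the windows would be missed.

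Genes of neighbouring pathways give the surroundings of these changes. Of 20 tested genes of SREBP cleavage and of degradation in the endoplasmic reticulum, 12 rose and 5 fell with dhelix FOXP2, 15 rose and 5 fell with WT FOXP2, and 10 rose and 5 fell with CHIR, against the shares of all genes given above. With CHIR, PAQR3, which anchors SCAP in the Golgi, averaged 183 CPM against 47.6 CPM in mock (log2 fold change 1.94 ± 0.06), and MBTPS1, the protease that makes the first cut in SREBP, averaged 106 CPM against 226 CPM in mock (-1.10 ± 0.03). Of 36 other tested SREBP targets and sterol uptake genes, 15 rose and 17 fell with dhelix FOXP2, 16 and 16 with WT FOXP2, and 15 and 14 with CHIR. NPC1, which exports cholesterol from lysosomes, rose with WT FOXP2 to 205 CPM, against 60.4 CPM in mock (1.76 ± 0.03). Of 20 other tested LXR pathway genes, 6 rose and 9 fell with dhelix FOXP2, 7 and 10 with WT FOXP2, and 4 and 11 with CHIR. ABCA7, a relative of ABCA1, fell with WT FOXP2 (-3.06 ± 0.13) and with CHIR (-1.61 ± 0.11). Values of these named genes with dhelix FOXP2 are not given here, so none is shown to be particular to WT FOXP2.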

How the data were processed

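The authors deposited raw counts per gene as whole numbers, with a column for each library. The tools that the submitters' processing notes list are STAR 2.6.1a, featureCounts and Subread, DESeq2, and the genome build hg19. Per the labels' protocols, libraries were stranded mRNA libraries. Neither the annotation nor the strand setting is given in the sources used here. Counts of a gene with an antisense neighbour may therefore hold reads of that neighbour, or lack reads from the shared bases. Total counts were 15755842 to 29466652 per library. Replicates were compared by the chi-square of their counts; the lowest value per gene was 1.39, so no 2 libraries agreed within sampling noise.

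The table held 57373 genes, 17378 of them at 0 throughout. The default filter of edgeR 4.0.16 (R 4.3.3) over 6 groups kept 18485 genes with 99.9% of the counts. A quasi-likelihood model with TMM scaling and robust dispersion was fitted to all 30 libraries (common biological coefficient of variation 5.62%), with 9 comparisons of groups and 3 interactions, 2-sided, adjusted by Benjamini-Hochberg within each at 0.05. CPM use the same scaling, and standard errors derive from the test statistic. The procedure was tested on simulated data. Alternatives were DESeq2 1.42.0, its size factors, other filters, FOXP2 left out of library sizes, only the compared groups, a replicate block and each library left out; leaving out 3 libraries that stand apart was added after seeing the data.

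The 34 genes and the other lists were chosen with earlier results of these data known. All 34 are described; from other lists at most 4 genes per comparison could be named, those with the largest called change and a mean of at least 1 CPM. Promoters are RefSeq sequences on GRCh38.p14 matched by symbol, and exon overlaps come from the GENCODE annotation on GRCh38, neither being the build of the counts; no coordinates were converted.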

Additional observations from a re-analysis of the deposited data

Results flagged for a closer look

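A library was far from the other 4 of its group for 13 of the 204 sets of 5 values (34 genes in 6 groups), where chance gives about 1 in 20. CHIR replicate 1 accounted for 6 of the 13: HMGCS1 at 202 CPM and SC5D at 37.2 CPM were above the other CHIR libraries, and LSS at 104, EBP at 26.4, SCAP at 95.6 and FADS2 at 113 CPM were below them. In WT FOXP2 cells LSS was low in replicate 5 (65.1 CPM), SC5D high in replicate 5 (29.3 CPM), DHCR7 high in replicate 3 (65.0 CPM) and ACACA low in replicate 4 (132 CPM). INSIG1 was high in dhelix FOXP2 replicate 2 (55.1 CPM), SCAP low in replicate 4 of dhelix FOXP2 with CHIR (117 CPM), and SQLE high in mock replicate 1 (116 CPM). What sets CHIR replicate 1 apart was not tested.

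The effect of a construct was compared between cells with and without CHIR by a test of the difference itself. With WT FOXP2 the difference was above 0 for 22 of the 34 genes and below 0 for 4, against 30.7% and 34.9% of all genes. With dhelix FOXP2 it was above 0 for 20 and below 0 for 3, against 31.2% and 33.7% of all genes. In the isoprenoid arm the log2 difference for WT FOXP2 was -0.76 for HMGCS1, 0.88 for MVK, -0.32 for PMVK, 0.37 for MVD and 0.82 for IDI1, and for dhelix FOXP2 it was -0.67 for HMGCS1, 0.64 for MVK, -0.39 for PMVK and 0.67 for IDI1. From squalene to cholesterol it was, for WT FOXP2, 0.53 for FDFT1, 0.25 for SQLE, 0.66 for LSS, 0.44 for CYP51A1, 0.38 for TM7SF2, 0.23 for MSMO1, 0.54 for HSD17B7 and 0.70 for DHCR7. The difference lost its call without any of 5 libraries for MSMO1 (0.18 to 0.24) and without any of 9 for TM7SF2 (0.31 to 0.39). For dhelix FOXP2 it was 0.40 for FDFT1, 0.27 for SQLE, 0.55 for LSS, 0.48 for CYP51A1 and 0.68 for DHCR7. STARD4 stood at 0.64 for WT FOXP2 and 0.49 for dhelix FOXP2.

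Among the SREBP genes the difference for WT FOXP2 was 2.39 for INSIG1, -0.56 for INSIG2, 1.58 for SREBF1 and 0.40 for SREBF2, and for dhelix FOXP2 it was 2.06 for INSIG1, -0.38 for INSIG2, 1.52 for SREBF1 and 0.47 for SREBF2. Among the LXR-controlled genes it was, for WT FOXP2, 4.13 for ABCA1, 2.89 for ABCG1 and 1.24 for MYLIP, and for dhelix FOXP2, 4.04 for ABCA1, 3.13 for ABCG1 and 1.06 for MYLIP. Among the fatty acid genes it was, for WT FOXP2, 0.61 for FADS1, 0.71 for FADS2, 0.42 for SCD, 0.27 for ACACA and -0.21 for ACLY. For dhelix FOXP2 it was 0.72 for FADS1, 0.78 for FADS2, 0.58 for SCD, 0.38 for FASN, 0.49 for ACACA and 0.28 for ELOVL6.

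The difference between the constructs changed with CHIR state for 6 genes, 4 above 0 and 2 below, against 8.93% and 5.29% of all genes. These were HSD17B7 (-0.31), INSIG1 (-0.33), SCD (0.16), ACACA (0.22), ACLY (0.19) and ELOVL6 (0.21). ELOVL6 lost its call without any of 17 libraries, SCD without any of 9 and HSD17B7 without any of 7. Mean FOXP2 transcript also differed between the constructs at each CHIR state, and the part of that difference was not tested.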

How the results depend on the processing

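Of 408 results on single genes (34 genes in 12 comparisons), 402 kept their direction and their side of the threshold with DESeq2, 404 with DESeq2's size factors, 396 with FOXP2 left out of library sizes, 389 with a filter of at least 1 CPM, 377 with no filter and 382 with only the compared groups fitted. None of these 6 settings reversed a result. Leaving out 1 library kept 4904 of 5100 results and turned 2: SQLE with CHIR against mock ran from -0.073 (without CHIR replicate 1) to 0.032, and SC5D with dhelix FOXP2 and CHIR against CHIR from -0.058 to 0.12 (without CHIR replicate 1). Without the 3 libraries that stand apart 372 of 408 were kept, and the same 2 results turned, to -0.073 and 0.12. The count of genes whose interaction differed between the constructs was 6; it was 13 with only the compared groups, 13 without the 3 libraries, and 3 to 6 with 1 library left out. The cause was not tested. The count of at least 2-fold differences of dhelix FOXP2 with CHIR against WT FOXP2 with CHIR was 0 to 1 with 1 library left out, being 0 without replicate 1 of WT FOXP2 with CHIR or without replicate 2 or 5 of dhelix FOXP2 with CHIR.

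Replicate numbers are shared across groups, but same-numbered libraries did not deviate together: their correlations ran from -0.08 to 0.14, and 1 pair exceeded 0.1. With the replicate number as a block, 398 of the 408 results were kept, and the 1 call lost was MVK with dhelix FOXP2 and CHIR against CHIR (0.16, adjusted p = 0.053). Depth limits ABCA1 most, with as few as 6 counts in a library.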

Other observations

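Genes that use or store the products of these pathways were counted in the same way, with the shares of all genes given below. Of 22 tested genes that use isoprenoids for prenylation, dolichol or ubiquinone, 13 rose and 2 fell with dhelix FOXP2, 13 and 1 with WT FOXP2, and 11 and 7 with CHIR. PDSS1, which builds the ubiquinone tail, rose with WT FOXP2 (1.46 ± 0.05) and CHIR (1.08 ± 0.05), and RABGGTB, a subunit of the enzyme that prenylates Rab proteins, rose with WT FOXP2 (1.46 ± 0.04). Of 28 tested genes of fatty acid oxidation, 7 rose and 17 fell with dhelix FOXP2, 7 and 19 with WT FOXP2, and 8 and 10 with CHIR; PPARGC1A, a co-activator of oxidation genes, fell with WT FOXP2 to 2.98 CPM, against 20.1 CPM in mock (-2.74 ± 0.08). Of 21 tested genes of lipid droplets and triglyceride, 12 rose and 5 fell with dhelix FOXP2, 11 and 5 with WT FOXP2, and 7 and 10 with CHIR. MGLL, which releases fatty acid from monoglyceride, rose with WT FOXP2 to 129 CPM, against 27.1 CPM in mock (2.25 ± 0.06). For these named genes too, values with dhelix FOXP2 are not given. In these comparisons 39.6% of all genes were higher and 40.9% lower with dhelix FOXP2, 39.9% and 41.6% with WT FOXP2, and 38.8% and 35.3% with CHIR. The lists were drawn up with earlier results of these data known.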
